A study of Mus musculus with 24 samples.

Results

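Liver RNA of male Erfe-/- mice 48 h after bleeding was compared with liver RNA of male Erfe-/- mice at 0 h, on 8 of the 24 arrays of the study. The samples were chosen by their titles, 4 livers at each of these times and 1 array for each liver, and all genes on the array were taken. Blood was drawn by puncture behind the eye, and the 0 h livers are labelled as the control. Every mouse carried the Erfe knockout, the controls included, so these arrays show bleeding without Erfe and hold no wild-type liver to set it against. Strain, age and the volume of blood taken are not given in the sources used here. The other arrays hold liver at 24 h, which entered the fit for its spread, and bone marrow, which was not used.

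Erfe encodes erythroferrone, a hormone that erythroblasts release after blood loss. It binds bone morphogenetic proteins and so lowers signalling through BMP receptors and SMAD proteins in the hepatocyte, which drives transcription of Hamp. Hamp encodes hepcidin, the peptide that closes the iron exporter ferroportin, so that a lower hepcidin level lets iron enter plasma for new red cells. The comparison asks which liver transcripts differ after bleeding when this hormone is missing.

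Both probes for Erfe were well above background on 0 of 8 livers. With no wild-type liver beside them, this absence does not test the knockout. All 25 listed genes of secreted hepatocyte proteins passed the filter, and Apoc3 had levels of 9.40, 9.36, 9.24 and 9.29 at 0 h and 9.26, 9.22, 8.96 and 9.10 at 48 h. Each level is given as log2 of the signal over that array's own 75th percentile, which lay between 361.2 and 473.1 intensity units. Between 28014 and 33157 of 56605 probes were well above background on an array, and Spearman correlations between the 8 arrays were 0.985 to 0.992. The number of arrays limits the precision, and the median standard error of a difference was 0.12. Arrays with the same scan date in the scanner file headers were taken as a slide, since no slide number was read. Each slide so inferred held arrays of both times. Slide 1 held 0 h replicates 1 and 2 with 48 h replicate 1. Slide 2 held 0 h replicate 3 with 48 h replicates 2 and 3, and slide 3 held replicate 4 of both times. All differences below are 48 h minus 0 h on the log2 scale, and within-slide differences are given in the order of slides 1, 2 and 3. In whole liver, fewer cells of a type and less RNA per cell cannot be told apart.

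Of 19639 genes tested with limma, 0 passed an adjusted p of 0.05 (0% of those tested), and the smallest adjusted p was 0.268. At an unadjusted p under 0.05 there were 1266 genes (6.45%), of which 503 were higher at 48 h (2.56%) and 763 lower (3.89%). The groups did not overlap for 811 genes (4.13%), with all 4 livers at 48 h above every 0 h liver for 339 (1.73%) and below every 0 h liver for 472 (2.4%). The median difference over all genes was -0.02. These shares of all genes are the background for the counts of each gene list below. When arrays were scaled to their median, 837 genes had an unadjusted p under 0.05, 500 higher and 337 lower, so that 59.7% were higher against 39.7% with the 75th percentile. Differences below are therefore measured values that do not pass the correction over all genes, and the exact two-sided permutation test of 4 against 4 arrays cannot give a p below 0.0286.

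Leaving out 48 h replicate 1 gave 9 genes at an adjusted p under 0.05, while leaving out any other of the 8 arrays gave 0. In that fit the genes called included Hba-a1 (1.04), Hba-a2 (1.03), Hbb-b2 (1.04) and Hbb-bt (1.29), which were higher, and Hamp (-2.15), Scd1 (-0.87), Scd3 (-0.95) and Nr5a1 (-0.84), which were lower, with adjusted p from 0.000888 to 0.0224. Among the 811 genes whose groups did not overlap, 48 h replicate 1 was the array nearest to the 0 h livers for 302 genes (37.2%), against 154, 140 and 215 genes for replicates 2, 3 and 4.

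**Figure D1:**
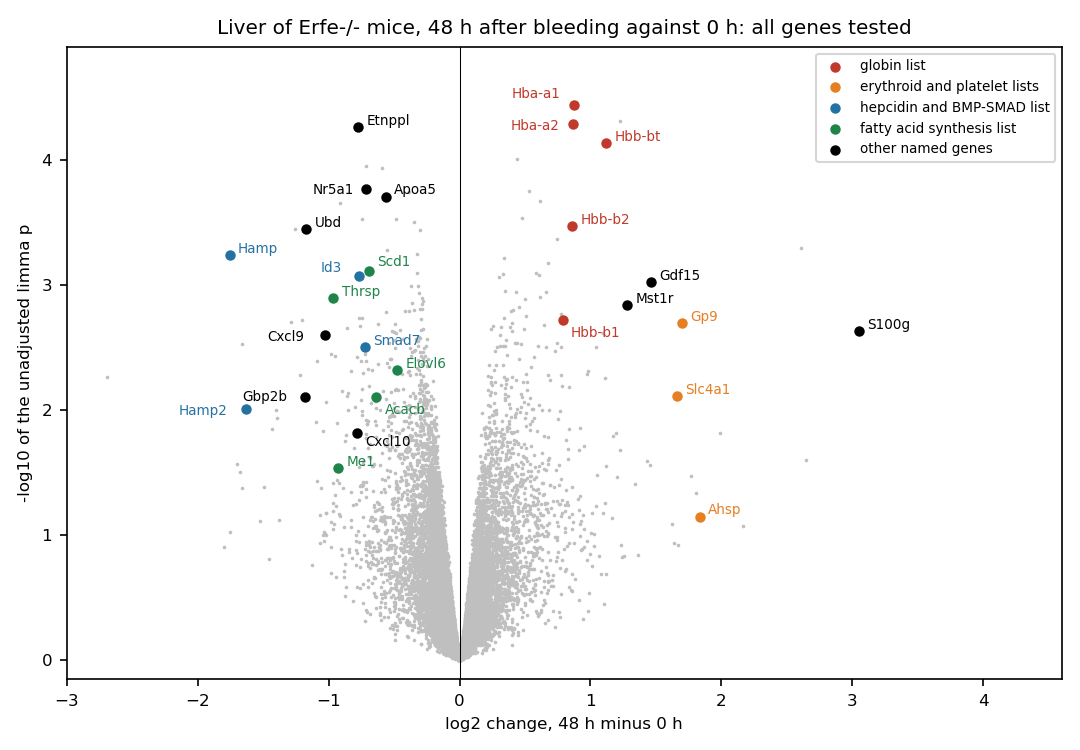
Each point is 1 of the 19639 genes tested, with the log2 difference of 48 h minus 0 h on the horizontal axis and -log10 of the unadjusted limma p on the vertical axis, and colours mark the genes named in the legend. The alpha globins Hba-a1 and Hba-a2 lie highest of the labelled genes on the right, Etnppl lies highest of them on the left, and Hamp is the farthest left of the labelled genes.

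Hamp had the largest negative difference among the genes named by the ranking rule. The Hamp probe lies at chr7:31727490-31727549 of assembly mm9, and the probe of Hamp2, the second hepcidin gene of the mouse, at chr7:31707520-31707579. They are shown because the levels of both genes turn on how well the probes tell the copies apart. Aligned over 59 bases, they are identical at 42, and capitals mark the longest run they share, 14 bases.
Hamp probe: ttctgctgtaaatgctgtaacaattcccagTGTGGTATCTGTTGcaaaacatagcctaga
Hamp2 probe: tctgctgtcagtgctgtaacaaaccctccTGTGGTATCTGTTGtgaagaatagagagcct

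On the 0 h arrays Hamp had levels of 6.66, 7.14, 7.49 and 7.43, and on the 48 h arrays 6.60, 4.97, 5.39 and 4.74, in replicate order. The 48 h livers were all below the 0 h livers, but replicate 1 at 48 h missed the lowest 0 h liver by little and stood well above the other 48 h livers. The difference was -1.76 (SE 0.37), a level 3.38-fold lower on average, with a limma p of 0.000577 unadjusted and 0.420 adjusted. Within slides it was -0.30, -2.31 and -2.70. Hamp2 had 4.74, 4.45, 4.13 and 3.66 at 0 h and 3.96, 2.51, 2.12 and 1.87 at 48 h. Its groups overlapped, since 48 h replicate 1 lay within the 0 h range while the other 48 h livers lay below it. Its difference was -1.63 (SE 0.53, unadjusted limma p 0.00984, adjusted 0.634), and -0.64, -1.82 and -1.80 within slides.

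The list of hepcidin genes and of genes in BMP and SMAD signalling had 20 members, all tested. Their median difference was -0.14, with 0 higher and 4 lower at an unadjusted p under 0.05, and 0 above and 2 below without overlap, beside -0.02, 2.56% and 3.89%, and 1.73% and 2.4% over all genes. The 4 were Hamp, Hamp2, Id3 and Smad7. Hamp and Hamp2 may not count separately, since signal shared between their probes was not tested. Id3, a helix-loop-helix inhibitor and direct target of BMP signalling, had 2.44, 2.92, 3.21 and 3.14 at 0 h and 2.42, 2.09, 1.95 and 2.17 at 48 h. Its groups did not overlap, although 0 h replicate 1 and 48 h replicate 1 were nearly level, and the difference was -0.77 (SE 0.17, unadjusted limma p 0.000857). Smad7, an inhibitory SMAD induced by the same pathway, had -0.50, -0.07, 0.06 and 0.06 at 0 h and -0.35, -0.88, -1.32 and -0.78 at 48 h. Here 48 h replicate 1 lay above 0 h replicate 1, so the groups overlapped. The difference was -0.72 (SE 0.19, unadjusted limma p 0.00317), against 0.04 for a second, dimmer probe of the gene.

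Other members of the list had smaller or more scattered values. Of the 20, 8 were above 0 and 12 below. The highest difference was 0.93, and it was not at an unadjusted limma p under 0.05. Id1 had a difference of -0.62 and Atoh8, a transcription factor that acts on the Hamp promoter, of -0.37, with unadjusted limma p of 0.0911 and 0.0628 and overlapping groups. Bmp6, the ligand made by sinusoidal endothelium in response to iron, had a difference of -0.24 (unadjusted p 0.302). On slide 1, which holds 48 h replicate 1, Id1 differed by 0.52 and Id3 by -0.27, and on slides 2 and 3 Id1 differed by -0.99 and -1.21 and Id3 by -1.19 and -0.96. The 20 genes of iron and heme handling, which include ferritin, ferroportin and transferrin receptor genes, had a median of 0.02 and 0 members at an unadjusted p under 0.05. Tfrc, the transferrin receptor, differed by -0.20 and Smad6, the other inhibitory SMAD, by 0.05, each with a sign that some alternatives turned.

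Part of the promoter of both hepcidin genes is shown because Hamp and Hamp2 had differences of similar size. The windows are on the minus strand of GRCm38.p6, Hamp at chr7:30944106-30944165 and Hamp2 at chr7:30924255-30924314, from the RefSeq promoter table. Capitals mark the 6 bases that in Hamp read GGCGCC, the core of the element through which SMAD proteins act on that promoter.
Hamp promoter: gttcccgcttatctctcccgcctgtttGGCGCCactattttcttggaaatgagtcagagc
Hamp2 promoter: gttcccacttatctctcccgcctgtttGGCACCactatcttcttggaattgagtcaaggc

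The windows are identical at 54 of 60 bases. Within the capitals they differ by G31A, counted from 1 at the 5′ end of the window with the Hamp base first. GGCGCC reads the same on both strands and was found in 3898 of 32851 promoters of 300 bases (11.9%), that of Hamp included and that of Hamp2 not. These letters describe the window only.

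Globin levels were above the 0 h range in every 48 h liver. Hba-a1 and Hba-a2 encode alpha globin, and Hbb-bt, Hbb-b1 and Hbb-b2 adult beta globins. Hba-a1 had 7.38, 7.46, 7.34 and 7.60 at 0 h and 7.85, 8.48, 8.53 and 8.43 at 48 h, and the groups did not overlap. Replicate 1 was the lowest at 48 h, closer to the 0 h livers than the other 48 h livers were. The difference was 0.88 (SE 0.13), or 1.84-fold, with an unadjusted limma p of 3.63e-05, an adjusted p of 0.268 and within-slide values of 0.43, 1.17 and 0.83. The probe representing Hba-a1 shares a run of 59 bases with that of Hba-a2, so these alpha globin copies cannot be told apart. Another probe of Hba-a1, at chr11:32183955-32184014 of mm9, differed by 0.75 and is shown as a separate measurement of alpha globin, with no part in capitals. This probe was not aligned with Hba-a2, so it may not tell the copies apart.
Hba-a1 second probe: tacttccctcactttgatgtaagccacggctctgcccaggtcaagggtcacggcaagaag

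Among the beta globins, Hbb-bt had 4.94, 4.86, 4.52 and 5.18 at 0 h and 5.48, 6.20, 6.20 and 6.10 at 48 h, a difference of 1.12 (SE 0.18, unadjusted limma p 7.39e-05). Hbb-b2 had 2.90, 2.76, 2.51 and 2.92 at 0 h and 3.09, 3.99, 3.74 and 3.71 at 48 h, a difference of 0.86 (SE 0.17, unadjusted p 0.000337). Hbb-b1 had 1.71, 1.70, 1.18 and 1.75 at 0 h and 1.87, 2.78, 2.49 and 2.34 at 48 h, a difference of 0.79 (SE 0.20, unadjusted p 0.00192). In each of these genes the 48 h livers lay above the 0 h livers with replicate 1 the lowest of them. Near-identical globin copies may share signal between probes.

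Of the 10 globins listed, 5 were tested, and each of these 5 was above background on all 8 arrays. The embryonic globins Hba-x, Hbb-y, Hbb-bh1 and Hbb-bh2 did not pass the filter on dim probes, and Hbb-bs has no probe under that name. The 5 tested had a median difference of 0.87, and all 5 were higher at an unadjusted p under 0.05 with groups that did not overlap. Of all genes, 2.56% were higher at that p and 1.73% lay above without overlap. Hba-a1 and Hba-a2 do not count separately here, since their probes share 59 bases. At 24 h, set against the same 0 h livers, the differences were 0.47 for Hba-a1, 0.70 for Hbb-bt, 0.54 for Hbb-b2 and 0.41 for Hbb-b1.

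The globin values were not matched across the erythroid list. Of its 30 genes 18 were tested, with a median difference of 0.05, 3 higher and 2 lower at an unadjusted p under 0.05, and 1 above and 1 below without overlap. Over all genes the shares were 2.56% and 3.89%, and 1.73% and 2.4%. The summed level of the 18, in multiples of the 75th percentile signal, was 139.3 to 176.9 on the 0 h arrays and 127.0 to 174.1 on the 48 h arrays. Defining genes such as Epb42 and Gata1 did not pass the filter.

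Slc4a1, the anion exchanger of the red cell membrane, had -3.40, -2.88, -3.46 and -1.01 at 0 h and -1.78, -0.78, -0.75 and -0.79 at 48 h. The difference was 1.66 (SE 0.51, unadjusted limma p 0.00768), and 0 h replicate 4 lay above 48 h replicate 1. Ahsp, the chaperone of free alpha globin, had -4.38, -3.98, -4.84 and 0.07 at 0 h and -2.35, -1.33, -1.12 and -1.0 at 48 h. Its highest value of all was that of 0 h replicate 4. It had signal above background in 2 of 4 livers at 0 h and 4 of 4 at 48 h, and its fitted difference of 1.83 ran from 0.68 to 2.95 over 20 alternatives. Ahsp passed the filter only through the bled livers. Alas2, the erythroid enzyme that starts heme synthesis, had 4.14, 4.48, 4.01 and 4.35 at 0 h and 3.97, 4.09, 3.80 and 3.82 at 48 h. Its groups overlapped, and the difference was -0.32 (SE 0.13, unadjusted limma p 0.0342). Rhd, a blood group antigen, differed by -0.37 (unadjusted p 0.0174), with groups that did not overlap. Bpgm, which makes the bisphosphoglycerate that tunes oxygen release, differed by 0.25 (unadjusted p 0.0227).

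**Figure D2:**
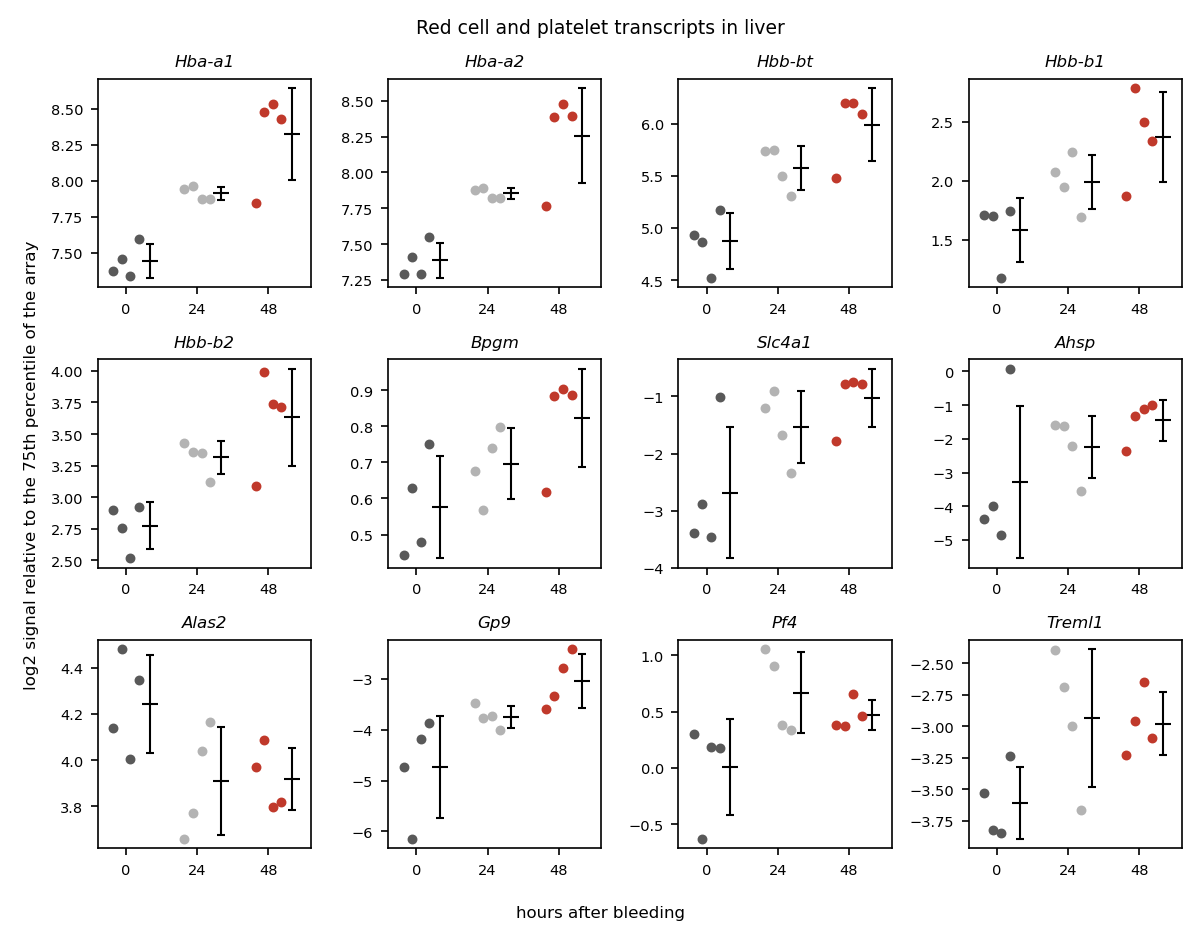
Each panel plots 1 red cell or platelet transcript, with hours after bleeding on the horizontal axis and the log2 level on the vertical axis. Points are single livers in the order of replicates 1 to 4, bars are the mean and SD of 4 livers, and each panel has its own vertical range. All 48 h points of the 5 globins lie above the 0 h points, with 48 h replicate 1 the lowest of its group, while Alas2 overlaps between times.

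Of 24 listed platelet and megakaryocyte genes 17 were tested, with a median difference of 0.26, 3 higher and 0 lower at an unadjusted p under 0.05, and 4 above and 0 below without overlap. The shares over all genes were 2.56% and 3.89%, and 1.73% and 2.4%. Of the 17, 5 had no signal above background in 1 or more 0 h livers, and 3 of these had it in all 48 h livers. Gp9 and Treml1, among those 3, make up 2 of the 3 genes at an unadjusted p under 0.05 and 2 of the 4 without overlap, so these counts rest in part on genes that passed the filter only through the bled livers. Differences of 12 of the 17 were above 0 and of 5 below, down to -0.21. The summed level of the 17 was 13.3 to 18 at 0 h and 16.7 to 20.4 at 48 h. Itga2b, Gp1ba, Gp1bb and Gp5, which help define the lineage, did not pass the filter. Gp9, a subunit of the platelet receptor for von Willebrand factor, had -4.74, -6.15, -4.18 and -3.87 at 0 h and -3.60, -3.33, -2.78 and -2.42 at 48 h, and had signal above background in 2 of 4 livers at 0 h and 4 of 4 at 48 h. The groups did not overlap, and the fitted difference of 1.70, set against a 0 h level that is partly below background, ran from 0.55 to 1.99 over 20 alternatives.

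Pf4, the chemokine platelet factor 4, had 0.30, -0.63, 0.18 and 0.18 at 0 h and 0.38, 0.37, 0.66 and 0.46 at 48 h, a difference of 0.46 (unadjusted limma p 0.0554) without overlap. The gap between the groups was small, and 0 h replicate 2 was far below the others. Itgb3, the beta subunit of the fibrinogen receptor, differed by 0.48 and Treml1, a receptor of platelet granules, by 0.63, with unadjusted p of 0.0394 and 0.0267 and groups that did not overlap. Treml1 had signal above background in 3 of 4 livers at 0 h. Ppbp, a platelet chemokine precursor, differed by 0.79 with overlapping groups (unadjusted p 0.158).

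In the list of T and natural killer cells 14 of 18 genes were tested, with a median difference of -0.30, 0 higher and 4 lower at an unadjusted p under 0.05, and 0 above and 1 below without overlap. Among all genes 3.89% were lower at that p, and 2.4% lay below without overlap. Cd3g, a chain of the T cell receptor complex, had -2.73, -3.38, -2.74 and -2.54 at 0 h and -3.98, -3.69, -3.51 and -3.25 at 48 h, and 48 h replicate 4 lay within the 0 h range. Its difference was -0.76 (SE 0.19, unadjusted limma p 0.00213). Ccl5, a chemokine of these cells, differed by -0.76 without overlap, and Nkg7 and Gzma, of cytotoxic granules, by -0.68 and -0.58 (unadjusted p 0.00405, 0.00887 and 0.0144). The summed level of the list, 40.3 to 50.4 at 0 h and 44.7 to 55.7 at 48 h, had the opposite sign to the median, and Cd4, which gives most of that sum, differed by 0.19, or by -0.25 on another probe.

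Neutrophil genes had a median of -0.08 (16 of 22 tested), B and plasma cell genes of 0.00 (10 of 16) and Kupffer cell and macrophage genes of 0.01 (18 of 18), each with 0 members at an unadjusted p under 0.05. Single livers scattered widely in neutrophil genes, with list medians relative to the 0 h mean of 0.16, -1.06, -0.35 and 1.0 on the 0 h arrays and -0.72, -0.17, 0.32 and 0.53 on the 48 h arrays. Endothelial genes had a median of -0.03, with Vwf at 0.37, and stellate cell and fibroblast genes of 0.06, with Dcn at 0.25. All 8 bile duct genes tested were above 0, with a median of 0.32 and 0 at an unadjusted p under 0.05. Exocrine pancreas genes had a median of -0.11 (6 of 15 tested) and fat tissue genes of 0.03 (6 of 9).

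**Figure D3:**
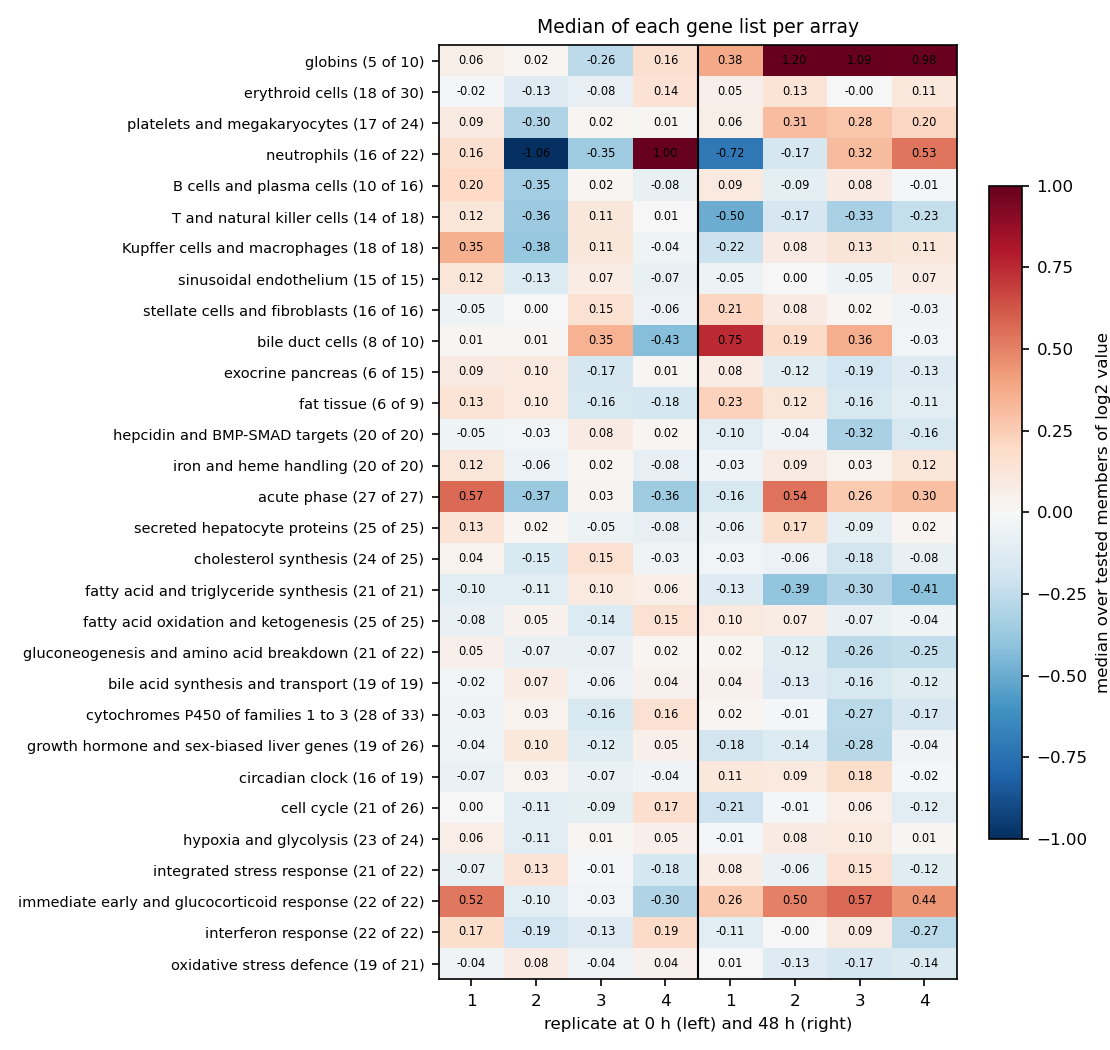
Rows are the 30 gene lists, with the number tested of the number listed, and columns are the 8 arrays. Colour and number give the median over the tested genes of the log2 level minus the gene's mean at 0 h. The globin row is 0.38, 1.20, 1.09 and 0.98 on the 48 h arrays against -0.26 to 0.16 at 0 h, and the row of fatty acid and triglyceride synthesis is -0.13, -0.39, -0.30 and -0.41 against -0.11 to 0.10.

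In genes of fatty acid and triglyceride synthesis, 18 of 21 had a difference below 0. All 21 of the list were tested, with a median difference of -0.32, 0 higher and 9 lower at an unadjusted p under 0.05, and 0 above and 6 below without overlap. For all genes the shares were 2.56% and 3.89%, and 1.73% and 2.4%. The list's median was -0.01, -0.64 and -0.36 within slides 1, 2 and 3. Its count of 18 of 21 below 0 was not particular to it. Bile acid synthesis and transport had 18 of 19 below 0, and gluconeogenesis and amino acid breakdown 18 of 21. Oxidative stress defence had 17 of 19, fatty acid oxidation and ketogenesis 13 of 25 and secreted hepatocyte proteins 12 of 25. Scd1, the desaturase that makes oleate, had 8.10, 7.99, 8.09 and 8.09 at 0 h and 7.90, 7.07, 7.34 and 7.19 at 48 h. The 0 h livers lay close together, and the 48 h livers were all below them, replicate 1 by less than the others. Its difference was -0.69 (SE 0.15, unadjusted limma p 0.000771, adjusted 0.474), and another probe gave -0.87. Scd3, a related desaturase outside the list that was picked after its values were seen, had 1.39, 1.33, 1.26 and 1.37 at 0 h and 1.23, 0.27, 0.54 and 0.34 at 48 h, again without overlap, and a difference of -0.74, against -0.10 on a second probe.

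Thrsp, a nuclear protein induced by carbohydrate feeding and thyroid hormone, had 5.25, 5.51, 5.73 and 6.03 at 0 h and 5.16, 4.30, 4.69 and 4.52 at 48 h. The groups did not overlap, and the difference was -0.96 (SE 0.23, unadjusted limma p 0.00127), or -1.01 on another probe. Me1, malic enzyme, which supplies NADPH for lipid synthesis, had 4.05, 4.09, 4.42 and 4.44 at 0 h and 4.07, 2.75, 3.22 and 3.26 at 48 h. Replicate 1 at 48 h lay within the 0 h range, and the difference was -0.93 (SE 0.37, unadjusted p 0.0291). Acss2, which makes acetyl-CoA from acetate, differed by -0.72, Acacb, an acetyl-CoA carboxylase, by -0.63, and the elongases Elovl6 and Elovl5 by -0.47 and -0.34. Their unadjusted p were 0.0155, 0.00793, 0.00483 and 0.0105, and the groups of Acacb and Elovl6 did not overlap. Other probes of Acacb gave 0.21 and -0.15. The remaining members at an unadjusted p under 0.05 were Acaca (-0.20) and the desaturase Fads2 (-0.26). Other probes gave -0.13 and -0.06 for Acaca and -0.03 to -0.16 for Fads2. Pnpla3, a lipase of lipid droplets, differed by -1.07 without overlap but with an unadjusted p of 0.117. Fasn, the fatty acid synthase, differed by -0.23 with overlapping groups (unadjusted p 0.210).

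At 24 h, against the same 0 h livers, the differences were -0.34 for Scd1, -0.71 for Thrsp, -1.62 for Me1, -0.76 for Acacb and -0.52 for Hamp.

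Fatty acid oxidation and ketogenesis had a median of -0.01 over 25 genes, with 1 higher and 0 lower at an unadjusted p under 0.05. That gene was Vnn1, a pantetheinase controlled by PPARA, with a difference of 0.66 and no overlap. Fgf21, a fasting hormone that is also in the list of the integrated stress response, differed by 1.03 and Cyp4a14, a PPARA-responsive hydroxylase, by 0.86, with overlapping groups and unadjusted p of 0.0977 and 0.0791. Cholesterol synthesis had a median of -0.07 over 24 genes, with 0 higher and 2 lower at an unadjusted p under 0.05. They included Ebp, a sterol isomerase (-0.28, or -0.14 on another probe). Over all genes, 2.56% were higher and 3.89% lower at that p.

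Genes of gluconeogenesis and amino acid breakdown had a median of -0.15 over 21 genes, with 0 higher and 4 lower at an unadjusted p under 0.05. Of all genes, 3.89% were lower at that p. The 4 were Fbp1, a gluconeogenic phosphatase (-0.30), and the urea cycle genes Asl (-0.27), Ass1 (-0.28) and Otc (-0.30). Fbp1 and Asl did not overlap between groups, and another probe of Asl gave -0.09. Bile acid synthesis and transport had a median of -0.08 over 19 genes, with Abcb11, the bile salt export pump, the 1 gene lower at an unadjusted p under 0.05 (-0.17). Cyp7a1, the rate-limiting enzyme of bile acid synthesis, had 1.65, 1.01, 2.77 and 2.03 at 0 h and 1.42, 0.02, 1.09 and 0.68 at 48 h, a difference of -1.06 with overlapping groups (unadjusted p 0.0684).

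Of the cytochromes P450 of families 1 to 3 and their regulators, 28 of 33 were tested, with a median of -0.13 and 0 higher and 5 lower at an unadjusted p under 0.05. The share of all genes lower at that p was 3.89%. Cyp2a5, a coumarin hydroxylase, had 6.45, 6.85, 6.15 and 6.53 at 0 h and 6.59, 5.40, 5.05 and 5.26 at 48 h. Replicate 1 at 48 h lay within the 0 h range and the other 48 h livers below it, and the difference was -0.92 (SE 0.39). The near-identical Cyp2a4 differed by -0.83, and their probes may share signal. Cyp2f2 and Cyp2c70 differed by -0.32 and -0.32, and Cyp2a12 by -0.27. Growth hormone and sex-biased genes had a median of -0.15 over 19 tested, with 0 higher and 1 lower at an unadjusted p under 0.05. That gene, Cyp4a12a, a male-biased fatty acid hydroxylase, had 4.15, 5.35, 4.30 and 4.80 at 0 h and 3.52, 3.70, 3.74 and 3.40 at 48 h, a difference of -1.06 without overlap. Its paralog Cyp4a12b differed by -1.09, and these copies may share signal.

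Secreted hepatocyte proteins had a median of 0.01 over 25 genes. Apoa1, of high-density lipoprotein, differed by 0.22 and Apoc3, an inhibitor of lipoprotein lipase, by -0.19 (unadjusted p 0.0139 and 0.0290). Acute phase genes had a median of 0.18 over 27 genes, of which 26 were above 0, with 3 higher and 0 lower at an unadjusted p under 0.05 and 0 without overlap. Among all genes 2.56% were higher at that p. The list scattered between livers, with medians relative to the 0 h mean of 0.57, -0.37, 0.03 and -0.36 on the 0 h arrays and -0.16, 0.54, 0.26 and 0.30 on the 48 h arrays. Within slides 1, 2 and 3 its median was -0.31, 0.34 and 0.75, so the sign was reversed on slide 1. Lbp, which binds bacterial lipopolysaccharide, had 3.44, 2.34, 2.63 and 2.28 at 0 h and 2.81, 3.53, 3.45 and 3.61 at 48 h. The highest 0 h liver, replicate 1, lay above 48 h replicate 1 and just below the other 48 h livers, and the difference was 0.68 (unadjusted p 0.0251). Fga, a fibrinogen chain, differed by 0.40, against 0.01 on a second probe, and Steap4, a metalloreductase, by 0.49.

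**Figure D4:**
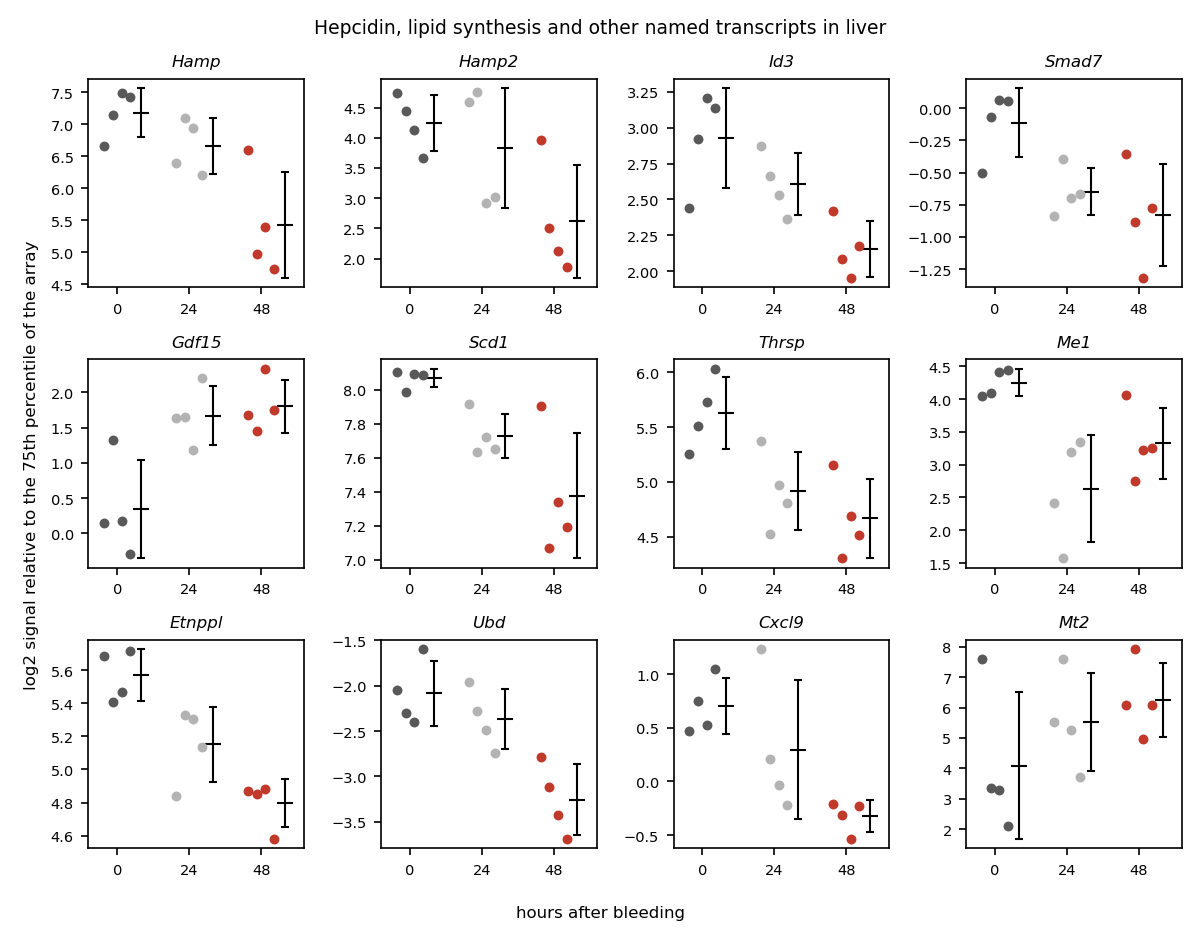
Each panel plots 1 hepatocyte or other named transcript, with hours after bleeding on the horizontal axis and the log2 level on the vertical axis. Points are single livers in the order of replicates 1 to 4, bars are the mean and SD of 4 livers, and each panel has its own vertical range. Hamp, Id3, Scd1, Thrsp, Etnppl, Ubd and Cxcl9 lie below all 0 h points at 48 h, and Hamp2, Smad7 and Me1 overlap through 48 h replicate 1.

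Immediate early and glucocorticoid response genes had a median of 0.42 over 22 genes, with 5 higher and 0 lower at an unadjusted p under 0.05, and 1 above and 0 below without overlap. Of all genes, 2.56% were higher at that p and 1.73% lay above without overlap. Within slides 1, 2 and 3 the list's median was 0.05, 0.41 and 0.94. Gadd45b, a stress-induced growth arrest gene, had -1.95, -2.20, -2.23 and -2.43 at 0 h and -1.29, -1.19, -0.43 and -1.75 at 48 h, without overlap, and a difference of 1.04 (SE 0.28, unadjusted limma p 0.00314). Egr1, an immediate early transcription factor, had 1.83, 0.83, 0.60 and 0.78 at 0 h and 1.80, 2.58, 2.22 and 2.79 at 48 h, and differed by 1.34 with an overlap between 0 h replicate 1 and 48 h replicate 1. The metallothionein genes Mt1 and Mt2, which encode metal-binding proteins induced by zinc and glucocorticoids, had the widest scatter. Mt2 had 7.61, 3.35, 3.29 and 2.12 at 0 h and 6.08, 7.91, 4.96 and 6.09 at 48 h, with 0 h replicate 1 at the level of the 48 h livers. Its difference was 2.17 (SE 1.15, unadjusted p 0.0849), and that of Mt1 was 1.80 (SE 0.80, unadjusted p 0.0460). Zfp36, which destabilises cytokine messages, differed by 0.43, and Ier3 by 0.43. Ier3, 1 of the 5 at an unadjusted p under 0.05, had signal above background in 3 of 4 livers at 0 h. It passed the filter only through the bled livers, so the count rests in part on that.

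The integrated stress response had a median of 0.02 over 21 genes, and Gdf15 was the 1 member at an unadjusted p under 0.05. Gdf15, a stress hormone of the TGF-beta family, had 0.15, 1.33, 0.18 and -0.30 at 0 h and 1.68, 1.45, 2.33 and 1.75 at 48 h, and 0 h replicate 2 came close to the 48 h range. The difference was 1.46 (SE 0.33, unadjusted limma p 0.000944), with 0.94, 1.71 and 2.05 within slides and 1.33 at 24 h against the same 0 h livers. Hypoxia and glycolysis genes had a median of 0.05 over 23 tested, with 0 higher and 2 lower at an unadjusted p under 0.05. These were the glycolytic genes Pgk1 (-0.33, without overlap) and Eno1 (-0.25). Other probes of Eno1 gave -0.22 and 0.38, so they disagree in sign, and the mean of its probes differed by -0.03. A second probe of Pgk1 gave -0.24. The 21 cell cycle genes tested had a median of -0.06 with 0 at an unadjusted p under 0.05, and oxidative defence genes a median of -0.12 over 19 with Sod2 lower (-0.23, unadjusted p 0.0472). Beside the counts of these lists, 2.56% of all genes were higher and 3.89% lower at an unadjusted p under 0.05.

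Circadian clock genes had a median of 0.03 over 16, with 0 higher and 1 lower at an unadjusted p under 0.05. The share of all genes lower at that p was 3.89%. Nr1d1, a clock repressor, had -2.72, -0.11, -1.82 and -2.23 at 0 h and 0.66, -0.68, -1.02 and -1.58 at 48 h, and Dbp, a clock output factor, -0.36, 0.08, -0.51 and -0.52 and 1.52, 0.37, 0.19 and -0.26. In both genes 48 h replicate 1 was the highest of all 8 livers, and their differences of 1.06 and 0.78 had unadjusted p of 0.148 and 0.0527. The hour of the day at which livers were taken is not given in the sources used here, and its part in the results was not tested.

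Interferon response genes had a median of -0.01 over 22 genes, 10 above 0 and 12 below, with 0 higher and 1 lower at an unadjusted p under 0.05. That gene was Cxcl10, a chemokine for activated T cells, which had 0.22, 1.08, 0.05 and 0.96 at 0 h and -0.02, -0.47, -0.12 and -0.20 at 48 h and differed by -0.78 without overlap. Over all genes 3.89% were lower at that p, and 2.4% lay below without overlap. The next 4 genes come from the ranking by size and from no list. Cxcl9, of the same chemokine family, had 0.47, 0.75, 0.53 and 1.05 at 0 h and -0.21, -0.31, -0.54 and -0.23 at 48 h, a difference of -1.02 (SE 0.26, unadjusted limma p 0.00250). Ubd, a ubiquitin-like protein, had -2.04, -2.30, -2.39 and -1.60 at 0 h and -2.79, -3.11, -3.43 and -3.69 at 48 h, a difference of -1.17 (SE 0.23, unadjusted p 0.000359). Gbp2b, a guanylate-binding protein, differed by -1.18 and Acod1, which makes itaconate in macrophages, by -0.85, with signal above background in 2 of 4 livers at 48 h. Acod1 passed the filter only through the 0 h livers, and its difference ran from -1.025 to -0.25 over 20 alternatives. In each of these 5 genes the groups did not overlap, which the ranking required of the 4 taken from it. Beside them stand the T and natural killer cell genes above, with a median of -0.30 and 10 of 14 below 0, whose part in the result was not tested.

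**Figure D5:**
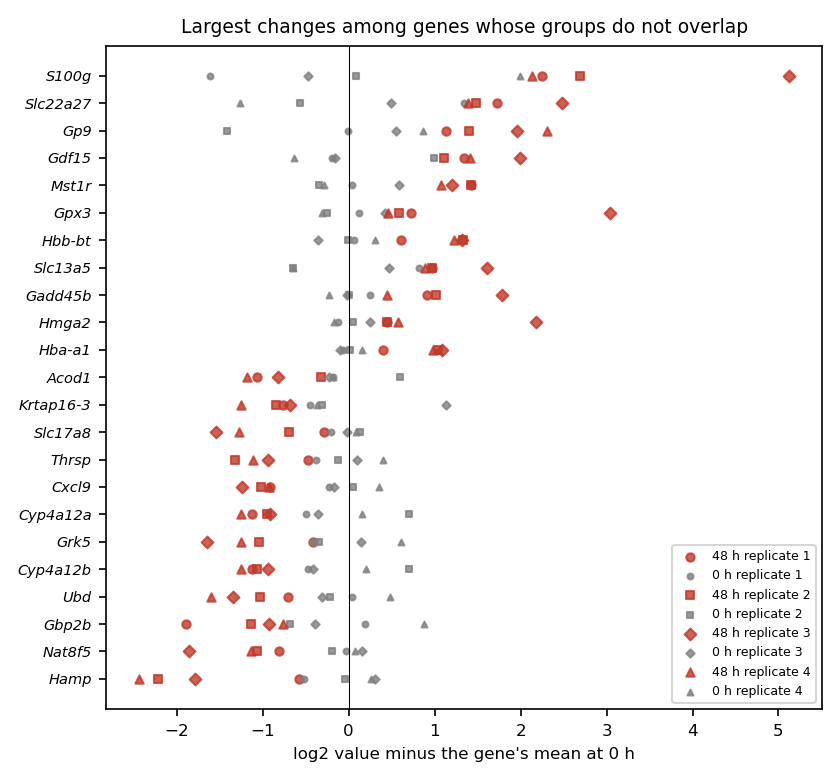
Rows are 11 of the 12 largest positive and the 12 largest negative differences among genes with a RefSeq symbol, clone and predicted names left out, whose groups did not overlap and whose unadjusted p was under 0.05, and the horizontal axis is the log2 level of each liver minus the gene's mean at 0 h. Red symbols are the 48 h livers and grey symbols the 0 h livers, with a shape for each replicate. S100g at 48 h replicate 3, Gpx3 and Hmga2 at that liver, and Hamp at 48 h replicate 1 lie apart from the rest of their groups.

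By size of the fitted difference, the highest genes with signal at both times were dim. S100g, a calcium-binding protein, had -6.62, -4.92, -5.49 and -3.01 at 0 h and -2.75, -2.32, 0.12 and -2.88 at 48 h, and had signal above background in 1 of 4 livers at 0 h and 4 of 4 at 48 h. Its fitted difference of 3.05 was 3.02, 4.39 and 0.13 within slides and 1.22 to 3.72 over 20 alternatives. Slc22a27, an organic anion transporter, also had signal above background in 1 of 4 livers at 0 h and 4 of 4 at 48 h, with a fitted difference of 1.77 that ran from 0.45 to 2.22. Both passed the filter only through the bled livers, and their differences are set against 0 h levels that are mostly below background. Apol11b, of the apolipoprotein L family, had signal above background in 0 of 4 livers at 0 h and 4 of 4 at 48 h. It passed the filter only through the 48 h livers. Set against the lowest signal above background at 0 h, it was at least 2.82-fold higher in the reported processing. The fit gave a limma adjusted p of 0.414, and differences from 0.75 to 2.90 over 20 alternatives.

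Further down the ranking, Mst1r, a receptor tyrosine kinase for macrophage-stimulating protein, had -4.0, -4.38, -3.45 and -4.33 at 0 h and -2.62, -2.62, -2.83 and -2.97 at 48 h, a difference of 1.28 (SE 0.31, unadjusted limma p 0.00144), with 1.33 at 24 h. Mst1r and Hmga2 had signal above background in 3 of 4 livers at 0 h, and both passed the filter only through the bled livers. Over 20 alternatives the difference of Mst1r ran from 0.48 to 1.48 and that of Hmga2 from 0.31 to 1.07. Slc13a5, the hepatic citrate carrier, differed by 1.11 and Gpx3, a secreted glutathione peroxidase, by 1.20. Hmga2, a chromatin protein of growing tissue, differed by 0.91, and by -0.30 on another probe, so the probes disagree in sign. In Gpx3, Slc13a5 and Hmga2, replicate 3 was far above the other 48 h livers. Porcn, which attaches lipid to WNT proteins, had a small difference, with -0.81, -0.81, -0.60 and -0.72 at 0 h and -0.38, -0.31, -0.34 and -0.14 at 48 h, or 0.44 (SE 0.08, unadjusted p 9.82e-05).

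Among the lower genes, Nat8f5, of a family of N-acetyltransferases, had 3.76, 3.59, 3.94 and 3.86 at 0 h and 2.97, 2.72, 1.92 and 2.65 at 48 h, a difference of -1.22 (SE 0.35) and of -1.75 at 24 h. Grk5, a kinase of G protein-coupled receptors, differed by -1.09, with 48 h replicate 1 level with the lowest 0 h livers. Slc17a8, a vesicular glutamate transporter, and Krtap16-3, a keratin-associated protein, were dim, with signal above background in 2 and 3 of 4 livers at 48 h, and differed by -0.95 and -0.89.

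Of the negative differences with the smallest p, Etnppl, which breaks down phosphoethanolamine, had 5.69, 5.41, 5.46 and 5.72 at 0 h and 4.87, 4.85, 4.88 and 4.58 at 48 h. The gap between the groups was wider than the spread within either, and the difference was -0.77 (SE 0.12, unadjusted limma p 5.45e-05, adjusted 0.268). Other probes of Etnppl gave -1.09 and -0.76, and within slides it was -0.68, -0.60 and -1.13. Apoa5, which promotes clearance of plasma triglyceride, had 8.18, 8.10, 8.0 and 8.11 at 0 h and 7.63, 7.37, 7.54 and 7.60 at 48 h, a difference of -0.56 (SE 0.10, unadjusted p 0.000197), or -0.31 on another probe. Its within-slide values of -0.51, -0.54 and -0.51 were alike, slide 1 with 48 h replicate 1 included.

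Fhit, a hydrolase of dinucleoside polyphosphates, differed by -0.59 (SE 0.10), with -0.54 and -0.63 on other probes, and by 0.06 at 24 h. Hspbap1, a protein that binds a small heat shock protein, differed by -0.49 (SE 0.09) and by 0.04 at 24 h. Nr5a1, a nuclear receptor best known from steroid-producing tissue, had 0.19, 0.16, 0.34 and 0.20 at 0 h and -0.11, -0.45, -0.59 and -0.80 at 48 h, a difference of -0.71 (SE 0.13, unadjusted p 0.000173) without overlap. Within slides it was -0.28, -0.86 and -1.0, and that of Hspbap1 was -0.50, -0.69 and -0.15.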

How the data were processed

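Total RNA of each liver was labelled with Cy3 and hybridised to a single-colour Agilent array. Per the submitters' processing notes, spots were read with Agilent Feature Extraction 10.10.1.1, and limma is also named. The deposited intensity is background subtracted per the file headers with no scaling across arrays. Log2 values of the same arrays were deposited by the authors too; their scaling is not given in the sources used here, and they served as an alternative. Background and outlier marks are those deposited in the scanner files.

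Processed intensity was converted to log2, and levels are relative to the 75th percentile of each array. Outlier spots and 3671 control spots were left out, and 0 spots were saturated. Spots of a probe were averaged. Of 56605 probes, 32994 were named through their accession, 10224 by symbol and 520 by synonym, and 12867 kept the file's name. A probe was kept where all 4 livers of 1 or more times had it well above background, and each gene was represented by its brightest kept probe. Probe positions are those of mm9, per the file headers, and exons were not analysed here.

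The 12 liver arrays were fitted with limma 3.58.1 in R 4.3.3 (time as factor, Benjamini-Hochberg over 19639 genes). The procedure was tested on simulated data. Some genes are counted but not reported here. Genes were named by rule: among genes whose groups did not overlap, with an unadjusted p under 0.05 and signal at both times, the 12 largest increases and 12 largest decreases; the 5 smallest p in each direction; genes without signal at one time as bounds; and members of 30 gene lists (606 genes). The rankings skip clone, predicted-gene, accession and position names and any symbol absent from the RefSeq table. The bound sets the 48 h mean against, per 0 h array, the higher of the probe's value and the lowest signal above background. The comparison, lists and rule were chosen with earlier results of these data known. The 21 alternatives were other scalings, another background correction, the authors' deposited values, other filters, probes per gene, slide, replicate number, arrays fitted, variance model, array weights and leaving out single arrays.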

Additional observations from a re-analysis of the deposited data

Results flagged for a closer look

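Among the genes named, 216 groups of 4 livers were tested for a liver far from the other livers of its group by Dixon's test, and 18 were marked, where chance alone marks about 1 in 20 groups. At 48 h, replicate 1 was low in Hbb-bt (5.48), Hba-a1 (7.85), Hba-a2 (7.77), Slc4a1 (-1.78), Bpgm (0.62) and Steap4 (0.31), values on the same log2 scale as above. Its part in the fit is given with the results, where leaving it out brought 9 genes past the threshold. At 48 h, replicate 3 was high in Gpx3 (1.66), Slc13a5 (0.0013) and Hmga2 (-2.21), and low in Cyp2f2 (7.77). Replicate 4 at 48 h was low in Etnppl (4.58), and replicate 2 at 48 h in Dcn (6.10).

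At 0 h, replicate 2 was high in Acod1 (-3.22) and low in Pf4 (-0.63), Ccl5 (0.22) and Scd1 (7.99). Replicate 3 at 0 h was high in Krtap16-3 (-1.82) and low in Hbb-b1 (1.18).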

How the results depend on the processing

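Over the 21 alternatives, 0 genes passed an adjusted p of 0.05 except without 48 h replicate 1 (9 genes) and 100 of 108 genes examined singly kept their sign in all of them. Array-median scaling gave 837 genes at an unadjusted p under 0.05 and 490 without overlap, against 1266 and 811. Leaving out each replicate in turn gave 0 to 9 adjusted calls, 936 to 1507 genes at an unadjusted p under 0.05 and 1186 to 1808 without overlap, a count that is larger by construction with 3 livers in a group. Scaling to the 75th percentile of probes above background on all arrays, quantile normalisation, normexp and the authors' deposited values gave 738 to 840 genes without overlap. With the slide as a block there were 0 adjusted calls and 1102 genes at an unadjusted p under 0.05.

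With the replicate number as a block there were 0 adjusted calls and 1181 genes at an unadjusted p under 0.05, and the smallest adjusted p was 0.630. Deviations of same-numbered livers correlated at -0.09 to 0.15, so the numbers were not taken as a pairing. Median differences of the lists ran from 0.81 to 1.04 for globins, 0.09 to 0.32 for platelets, -0.40 to -0.22 for fatty acid synthesis, -0.19 to -0.08 for hepcidin and BMP-SMAD genes and 0.08 to 0.52 for acute phase genes, and those of the erythroid list from -0.0049 to 0.10. Dim genes such as S100g, Slc22a27, Gp9, Mst1r and Apol11b are limited by their signal over background, and the lowest difference of Apol11b, 0.75, lies under its bound, which holds for the reported processing only.

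The other 8 turned sign in some settings, and the groups of 7 of them overlapped, those of Igf1 being the exception. Alb (-0.014) was 0.011 with median scaling, 0.024 with quantile normalisation, 0.0020 with the slide as a block and 0.019 with array weights. Klf1 (0.08) was -0.013 and Igf1 (-0.18) 5.0e-05 with the mean of a gene's probes. Leaving out each liver in turn, the differences ran from -0.11 to 0.071 for Alb, from -0.014 to 0.17 for Klf1, from -0.33 to 1.01 for Saa1 (0.18), from -0.85 to 0.54 for S100a8 (-0.30), from -0.70 to 0.61 for S100a9 (-0.17), from -0.044 to 0.14 for Smad6 (0.05) and from -0.45 to 0.071 for Tfrc (-0.20). Saa1 turned sign without 0 h replicate 2, 0 h replicate 4 or 48 h replicate 2, S100a8, S100a9 and Smad6 without 0 h replicate 4 or 48 h replicate 1, Tfrc without 0 h replicate 2, and Klf1 without 0 h replicate 3.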
